A study of Mus musculus with 3 samples.

Results

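The genes described here are 8 genes that govern how lymphocytes enter, stay in and leave lymph nodes, out of 55536 genes quantified by RNA-seq of polyadenylated RNA in activated regulatory T cells of the mouse. The set was given as a list of symbols: the homing genes Ccr7 and Selplg, the sphingosine-1-phosphate (S1P) receptor genes S1pr1, S1pr2 and S1pr4, the retention gene Cd69, the positioning receptor gene Gpr183 and the transcription factor gene Klf2. Each symbol matched 1 gene of the GENCODE M21 annotation on mm10. The primary cells came from a male of 9 weeks, and the strain name holds 3 alleles: Foxp3GFP-DTR (a reporter and toxin receptor at Foxp3), CD4CreERT2 (an inducible Cre) and R26tdTomato (a fluorescent reporter). Whether Cre or the toxin receptor was put to use, how the cells were activated and how they were sorted is not stated in the labels. All 3 libraries are technical replicates of the same biological replicate and form 1 group, with no resting cells or other condition beside it. SDs (n = 3) and p-values therefore cover spread between technical replicates of 1 biological replicate, not spread between animals. No level below shows a change on activation.

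As background, naive and central memory T cells enter lymph nodes through high endothelial venules. Selectin binding starts the rolling, the chemokine receptor CCR7 reads CCL19 and CCL21, and integrins arrest the cell. Cells leave along a gradient of S1P, which is low in the node and high in lymph and blood, by means of the receptor S1PR1. CD69, a lectin induced by activation, binds S1PR1 and draws it from the surface, which holds cells in the tissue, and KLF2 drives transcription of S1pr1 in T cells. These controls act in part on protein at the surface, which RNA does not show.

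Reads assigned to genes came to 20783676 estimated counts for replicate 1, 21206219 for replicate 2 and 18496690 for replicate 3. All 7 regulatory T cell markers reached 1 TPM in every library (TPM is a level scaled to transcript length and library size), with Foxp3 at 90.1 ± 6.76 TPM. Of the 6 B cell markers 4 reached 1 TPM in every library, and their summed level was 48.5, 49.6 and 53.8 TPM in replicates 1, 2 and 3. The 6 endothelial markers summed to between 92.19 and 104.67 TPM, nearly all of it from Pecam1, which lymphocytes also express, while Cdh5 averaged 0.0267 TPM and Lyve1 had no count. The myeloid and dendritic list summed to 21.2 to 32.3 TPM with S100a8 at 0 and the platelet list to 1.11 to 1.34 TPM. The CD8 T cell list summed to 18.5 to 24.3 TPM and the NK list to 2.04 to 3.13 TPM. Most of the CD8 T cell sum was Cd8b1 (20.6 ± 2.57 TPM), while Cd8a (1.46 ± 0.960 TPM) was under 1 TPM in replicate 1. In RNA from a cell population, fewer cells of a type and less RNA per cell cannot be told apart.

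All 8 genes were detected, meaning 1 TPM or more in every library, as were 10415 of 21951 protein-coding genes. Selplg was the most abundant, followed by Ccr7, S1pr1, Cd69, Gpr183, S1pr4, S1pr2 and Klf2. No neighbours in this order overlapped in their library values. The closest pair was Ccr7, whose lowest library had 292.64 TPM, and S1pr1, whose highest had 287.61 TPM. The median of the 8 mean levels was 99.6 TPM, against 26.2 TPM for detected protein-coding genes, and 6 of the 8 lay above that second median. S1pr2 stood at the middle of the detected protein-coding genes, 5209th from the top. Klf2 was low, with 27.7% below it.

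**Figure D1:**
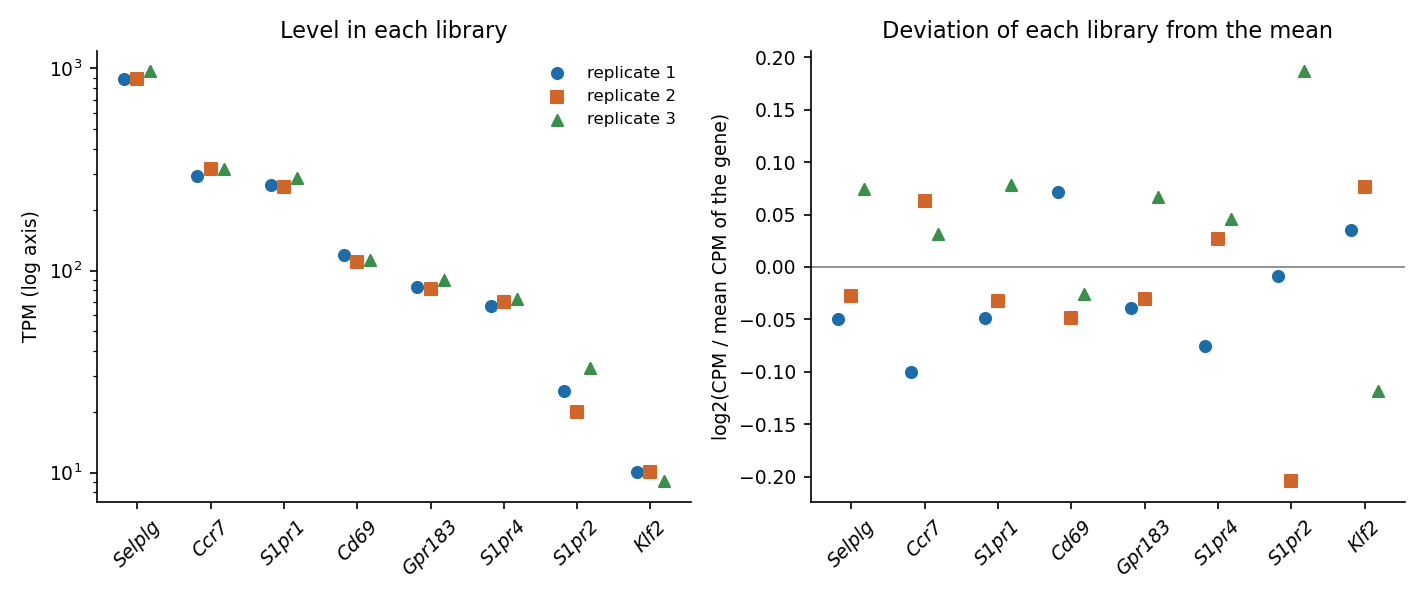
The left panel plots TPM on a log axis for the 8 genes in each of the 3 libraries, and the right panel plots log2 of each library's CPM (counts scaled to library size) over the gene's mean CPM. The levels run from 968.43 TPM for Selplg in replicate 3 down to 9.05 TPM for Klf2 in the same library, and S1pr2 is the gene whose libraries lie farthest apart.

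To ask whether libraries differed, rounded estimated counts of each gene were set against library totals in a chi-square test, with Benjamini-Hochberg adjustment over 14641 genes. Of the 8 genes 7 differed between libraries at an adjusted p under 0.05, all but Klf2. Over all genes tested 44.9% did. The share was 55.4% where the mean count reached 100 and 66.6% where it reached 1000, so a call was common at these depths. The calls rest in part on single libraries: 4 of the 8 genes were called without replicate 1, 7 without replicate 2 and 3 without replicate 3. Over all genes tested, 4157 of 13707, 3782 of 13675 and 4700 of 13828 were called, in the same order. With a quasi-Poisson test that allows for the extra spread of all genes, 2 genes (Selplg and Ccr7) were called, against a background of 9.1%. The differences were small: the highest library exceeded the lowest by 1.08-fold to 1.14-fold in CPM for 7 of the genes, and by 1.31-fold for S1pr2. The median ratio was 1.15 over the 9956 genes whose mean count reached 100.

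Replicate 3 had the highest CPM for 5 of the 8 genes, namely Selplg, S1pr1, S1pr2, S1pr4 and Gpr183. The same 5 were highest there with TMM and with DESeq2 scaling, and 7 of the 8 were highest there in the second gene table. The total of that table was smallest in replicate 3 (5746072, against 6288764 and 6209287 in replicates 1 and 2). Counts near equal over the libraries then give the highest CPM in replicate 3, so these 7 are no separate support for the 5. Among all genes that differed, replicate 3 was the highest library for 1987, replicate 1 for 2507 and replicate 2 for 2081. The summed B cell markers were also highest in replicate 3, as were 4 of the 6 by CPM. Ms4a1, the CD20 gene of B cells, had 1.57, 1.57 and 3.43 TPM in replicates 1, 2 and 3, while Cd79b, which made up most of the sum, had 38.17, 39.87 and 38.17 TPM. The summed myeloid and dendritic markers were highest in replicate 3 as well, at 29.7, 21.2 and 32.3 TPM. S1P receptors are expressed by B cells too, and the part of B or myeloid cells in these values was not tested.

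Among the homing genes, Ccr7 (ENSMUSG00000037944.8, chromosome 11 at 99144196 to 99155077, minus strand) encodes the receptor that guides T cells to the T cell zone. It had 292.64, 318.95 and 319.73 TPM in replicates 1, 2 and 3, a mean of 310 ± 15.4 TPM above 95.7% of detected protein-coding genes. Replicate 1 was the lowest, and the other two libraries lay within 1 TPM of each other. The adjusted chi-square p for Ccr7 was 9.15e-12, and it was 0.324 without replicate 1. None of the 3 genes for its ligands and their scavenger was detected, and the 1 tested, Ackr4, did not pass the test. The ligand genes were at or near 0: Ccl21a, which has near-identical copies in the genome, had no count and Ccl19 had 1 count in a single library. Ackr4, an atypical receptor that scavenges the CCR7 ligands, was at 0.793 ± 0.0814 TPM. With no count, the limit in CPM was 0.144, 0.141 and 0.162 for the libraries in order, for counting error only.

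Selplg (ENSMUSG00000048163.13, chromosome 5 at 113818536 to 113832644, minus strand) encodes the P-selectin ligand PSGL-1, which also binds CCL19 and CCL21. Its level was 883.27, 889.61 and 968.43 TPM in replicates 1, 2 and 3, with a mean of 914 ± 47.4 TPM above 98.9% of detected protein-coding genes. Replicate 3 stood above the other libraries, and replicates 1 and 2 lay close together. With replicate 3 the adjusted chi-square p was 1.46e-16, and without it 0.245. PSGL-1 binds selectins only when it carries sulphated tyrosines and sialylated, fucosylated glycans. Of 11 genes for selectins and for enzymes that make these modifications, 9 were detected and 7 of the 10 tested differed between libraries, against 44.9% of all genes tested and 55.4% of those whose mean count reached 100. The tyrosine sulphotransferase gene Tpst2 was at 137 ± 13.4 TPM. The galactosyltransferase gene B4galt1 (21.7 ± 3.52 TPM) and the sialyltransferase gene St3gal4 (21.2 ± 3.63 TPM) followed. The fucosyltransferase gene Fut4 (0.257 ± 0.104 TPM) and the endothelial selectin gene Sele (0.233 ± 0.0208 TPM) were lowest. Another fucosyltransferase gene of the list, Fut7, was detected at 10.7 ± 1.51 TPM.

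Selplg has 6 annotated transcripts, and 3 of them splice out a stretch inside the last exon, where the main form Selplg-201 keeps it. The sequences across these splice junctions are shown because they are what separates the forms from Selplg-201; they come from the GENCODE M21 transcripts, 5′ to 3′ on the minus strand of mm10, with the first bases after the junction in capitals.
Selplg-204: acccacatgtacccaGTCACTGGATACCTG
Selplg-205: cggtccgtctgtcccGTCACTGGATACCTG
Selplg-206: acagtggtgctggcgGTCACTGGATACCTG
The junctions leave exon 1 at 113819164, 113819184 and 113819197 of chromosome 5, in that order, and join the same base, 113818846. They remove 317, 337 and 350 bases.

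Selplg-201 (1855 bases) had 742.73, 734.22 and 804.28 TPM in replicates 1, 2 and 3, which was 83.2 ± 0.792% of the gene's TPM. Selplg-205 (694 bases) was next, at 122.73, 90.10 and 136.84 TPM, or 12.7 ± 2.25%. Selplg-204 (386 bases) varied more, at 8.29, 44.71 and 18.03 TPM. Replicate 2 was lowest for Selplg-205 and highest for Selplg-204, and the 3 forms with the internal junction summed to a steadier 15.6 ± 0.678% of TPM. Short transcripts carry few reads for their TPM: the same 3 forms held 5.69 ± 0.345% of the gene's estimated counts, and Selplg-201 held 93.1 ± 0.183%. The retained-intron form Selplg-202, the highest without an annotated coding sequence, was at 6.63, 8.50 and 7.16 TPM. It made up 0.815 ± 0.122% of TPM.

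Among the egress genes, S1pr1 (ENSMUSG00000045092.8, chromosome 3 at 115710433 to 115715072, minus strand) encodes the receptor that lymphocytes need to follow S1P out of the node. Replicates 1, 2 and 3 had 264.28, 260.13 and 287.61 TPM, with a mean of 271 ± 14.8 TPM above 94.7% of detected protein-coding genes. Replicate 3 stood above the other two libraries, which were close together. The adjusted chi-square p was 6.86e-10, against 0.567 without replicate 3 and 0.0602 with the quasi-Poisson test. S1pr1 has 1 annotated transcript, and no other annotated gene overlaps it. Gm9889, a non-coding gene on the opposite strand 77 bases away, was at 1.84 ± 0.441 TPM.

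S1pr4 (ENSMUSG00000044199.6, chromosome 10 at 81497747 to 81500132, minus strand) encodes an S1P receptor found mainly on blood and lymphoid cells. It had 66.99, 69.99 and 72.65 TPM in replicates 1, 2 and 3, a mean of 69.9 ± 2.83 TPM above 75.7% of detected protein-coding genes. The libraries were close together, replicate 1 being the lowest. At 0.0345 the adjusted chi-square p was near the threshold, and it was 0.0675 when no filter on low counts was applied and 0.793 without replicate 1. S1pr4 is a single exon. Its nearest neighbour Ncln, on the same strand 1354 bases away, was at 118 ± 6.28 TPM.

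S1pr2 (ENSMUSG00000043895.6, chromosome 9 at 20962361 to 20976781, minus strand) encodes a receptor that inhibits migration and confines follicular B and T cells to the germinal centre. Its level was 25.47, 20.00 and 32.97 TPM in replicates 1, 2 and 3, a mean of 26.1 ± 6.51 TPM. Replicate 3 exceeded replicate 2 by 1.65-fold in TPM, the widest ratio of the 8 genes. The estimated counts of 1098, 978 and 1119 differed less: in CPM the 3 libraries had 52.8, 46.1 and 60.5, a ratio of 1.31. The adjusted chi-square p was 3.44e-08, and it stayed under 0.05 in the second gene table, where CPM was 59.8, 54.6 and 72.7, but was 0.121 with the quasi-Poisson test.

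The gap between the TPM and CPM spreads of S1pr2 lay in a short transcript. GENCODE M21 lists 4 transcripts, of which S1pr2-201 (6394 bases) is the full-length coding form and S1pr2-204 (419 bases) is a processed transcript with no annotated coding sequence. Both join their own first exon to the same first base of the second exon, as the junction sequences show (mm10, minus strand, 5′ to 3′, second exon in capitals).
S1pr2-201: ggccggcctagccagTGCTCAGCCCCATGG
S1pr2-204: gactcttcctccaagTGCTCAGCCCCATGG
The first exon of S1pr2-201 ends at 20976598 and that of S1pr2-204 at 20973882 of chromosome 9, and the second exon begins at 20968570 in both. It runs to 20962361 in S1pr2-201 but only to 20968249 in S1pr2-204, so that of S1pr2-204 lies wholly within the longer one. Reads inside the shared stretch match both forms, and their division between the forms is an estimate. The introns are 8027 and 5311 bases long.

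S1pr2-201 had 12.13, 10.43 and 13.64 TPM in replicates 1, 2 and 3, from 1017.5, 917.24 and 1021.06 estimated counts. S1pr2-204 had 12.32, 8.84 and 17.42 TPM, from only 60.24, 45.31 and 76.02 estimated counts. The short form thus made up 48.5 ± 4.30% of the gene's TPM and 5.64 ± 1.09% of its estimated counts, while S1pr2-201 made up 47.1 ± 5.43% and 92.6 ± 1.27%. The level of 26.1 TPM is therefore more than the 12.1 ± 1.61 TPM of the full-length coding form. The remaining forms were minor: S1pr2-203, a retained intron, had 0.99, 0.72 and 1.02 TPM, and S1pr2-202 had 0.03, 0 and 0.90 TPM. Replicate 3 was highest and replicate 2 lowest for both main forms.

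**Figure D2:**
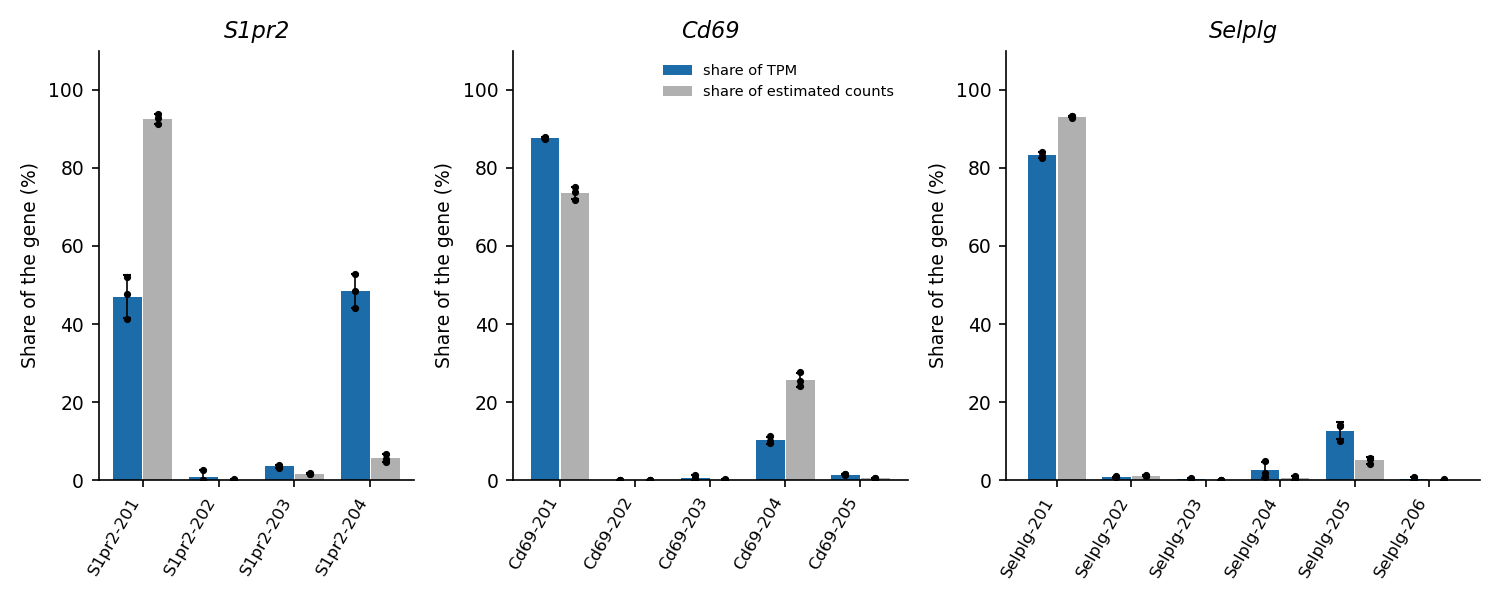
For S1pr2, Cd69 and Selplg, bars give each annotated transcript's mean share of the gene in percent, blue as a share of TPM and grey as a share of estimated counts, with dots for the 3 libraries and error bars for the SD. S1pr2-204 holds 48.5% of TPM but 5.64% of counts, and Cd69-204 holds 10.2% of TPM but 25.8% of counts.

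The 5 S1P receptor genes summed to 367 ± 23.4 TPM. S1pr1 made up 73.8 ± 0.652% of this sum, S1pr4 19.1 ± 0.808% and S1pr2 7.07 ± 1.33%. Shares and ratios of S1pr2 here take in all its transcripts, of which the full-length coding form held 47.1 ± 5.43% of TPM. S1pr3 (0.0711%) and S1pr5 (0.0257%) were near 0, so 3 of the 5 were detected. All 4 with enough counts to test differed between libraries, with replicate 3 the highest. Of all genes tested 44.9% differed. On the log2 scale S1pr1 exceeded S1pr4 by 1.95 ± 0.05 and S1pr2 by 3.40 ± 0.29 in TPM, gaps far larger than the spread between libraries. The linear ratio of S1pr1 to S1pr2 ran from 8.72 in replicate 3 to 13.01 in replicate 2.

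Of 10 genes for making, moving and breaking down S1P, 5 were detected. Between libraries 1 of 7 tested differed, against 44.9% of all genes tested. Sgpl1, the S1P lyase gene, was highest at 84.3 ± 4.03 TPM, and Sphk2, a kinase gene that makes S1P, was at 32.4 ± 1.90 TPM. The lipid phosphatase gene Plpp1 (5.48 ± 0.909 TPM) and the S1P phosphatase gene Sgpp1 (4.69 ± 0.563 TPM) were next. Plpp3 (0.0967 ± 0.0379 TPM) and Spns2, the S1P exporter gene of endothelium (0.0133 ± 0.0231 TPM), were lowest.

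All 10 genes for G proteins and for receptor desensitisation were detected and tested, and 5 differed between libraries, against 44.9% of all genes tested. Arhgef1, which acts below the inhibitory S1P receptor, was highest at 696 ± 88.8 TPM, and the inhibitory G protein gene Gnai2 was at 246 ± 58.2 TPM. Gnai3 (179 ± 11.2 TPM) and the arrestin gene Arrb2 (159 ± 16.0 TPM) followed. The lowest were Gna12 (2.47 ± 0.312 TPM) and the receptor kinase gene Grk5 (1.87 ± 0.332 TPM).

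The retention gene Cd69 (ENSMUSG00000030156.5, chromosome 6 at 129267325 to 129275436, minus strand) had 118.94, 110.45 and 113.39 TPM in replicates 1, 2 and 3. Its mean of 114 ± 4.31 TPM lay above 85.2% of detected protein-coding genes, and its libraries had the smallest relative spread of the 8 genes in TPM, with a coefficient of variation of 3.77%. Replicate 1 was highest, whereas S1pr1 was highest in replicate 3. In the second gene table this contrast was absent: the CPM of Cd69 there was 94.6, 96.6 and 96.9 in replicates 1, 2 and 3, lowest in replicate 1. The adjusted chi-square p was 0.00782, against 0.715 without replicate 1. S1pr1 exceeded Cd69 by 1.24 ± 0.10 on the log2 scale, or 2.22, 2.36 and 2.54 times in TPM in replicates 1, 2 and 3. Transcripts for the egress receptor and for the protein that draws it from the surface were thus both abundant in each library, and pooled RNA does not show whether the same cells held both.

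Cd69 has 5 annotated transcripts. The coding form Cd69-201 (1687 bases) had 103.86, 97.20 and 99.44 TPM, or 87.7 ± 0.342% of the gene's TPM. Cd69-204 (4968 bases), a retained-intron form that is 1 unbroken exon, had 13.33, 10.41 and 11.43 TPM, from 866.67, 709.52 and 663.24 estimated counts. Because it is long, it held 25.8 ± 1.79% of the gene's estimated counts but 10.2 ± 0.901% of its TPM. The 3 retained-intron forms together held 26.2 ± 1.82% of the counts, a share of reads assigned to forms other than the spliced coding message. The cause was not tested.

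The other coding form, Cd69-203, leaves out the second exon, and its junction differs from that of Cd69-201 after the same first exon (mm10, minus strand, 5′ to 3′, bases after the junction in capitals).
Cd69-201: agagagggcagaaggACCATGGCACCAGTA
Cd69-203: agagagggcagaaggTGGGCAAGTACAATT
The first exon ends at 129275222 of chromosome 6 in both, and the next begins at 129271457 in Cd69-201 and at 129270188 in Cd69-203. The form that skips the exon was rare, with 0, 10.53 and 4.51 estimated counts in replicates 1, 2 and 3.

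Gpr183 (ENSMUSG00000051212.8, chromosome 14 at 121952551 to 121965195, minus strand) encodes a receptor for oxysterols that positions lymphocytes at the border of follicle and T cell zone. It had 82.95, 81.49 and 90.16 TPM in replicates 1, 2 and 3, a mean of 84.9 ± 4.64 TPM above 79.8% of detected protein-coding genes. Replicate 3 was the highest and the other libraries were close together. Its adjusted chi-square p of 0.0220 became 0.897 without replicate 3. Gpr183-201 made up 98.9 ± 0.744% of its TPM, and Gpr183-202 had 0.43, 0.76 and 1.77 TPM. Gpr183 lies within the span of Ubac2 on the opposite strand (121878620 to 122021034, 158 ± 6.85 TPM). The genes share no exonic base, and since the strand setting of the quantification is not given, reads from introns of Ubac2 in the exons of Gpr183 cannot be told apart from its own.

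Of 4 genes for enzymes that make or break down the oxysterol ligand, Hsd3b7 alone was detected and tested, at 3.18 ± 0.751 TPM, and it differed between libraries. Cyp27a1 was at 0.320 ± 0.0954 TPM, and Ch25h and Cyp7b1, whose products make the main ligand, had no count in any library. Ccr7 exceeded Gpr183 by 1.87 ± 0.08 on the log2 TPM scale. The 6 other receptors of retention and positioning in the list were all detected. Between libraries 4 of these 6 differed, against 44.9% of all genes tested. Cxcr3, a receptor of effector cells, was at 260 ± 43.2 TPM, and Cxcr5, the follicle homing receptor, at 135 ± 27.2 TPM. Gpr174 (89.8 ± 4.15 TPM), Gpr18 (85.4 ± 3.09 TPM) and P2ry10 (64.1 ± 3.86 TPM) came next. Cxcr4, which retains cells in bone marrow, was lowest at 10.6 ± 2.44 TPM.

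Klf2 (ENSMUSG00000055148.7, chromosome 8 at 72319033 to 72321656, plus strand) encodes the transcription factor that drives S1pr1 in quiescent T cells and is lowered by T cell receptor signalling. Replicates 1, 2 and 3 had 10.10, 10.12 and 9.05 TPM, a mean of 9.76 ± 0.612 TPM. Replicates 1 and 2 coincided and replicate 3 was lower, from 240, 252 and 192 estimated counts. Its adjusted chi-square p was 0.451. With these counts the ratio of the highest to the lowest library in CPM, 1.14, was not distinguishable from counting error. The target gene S1pr1 exceeded Klf2 by 4.78 ± 0.17 on the log2 scale, which is 26.2, 25.7 and 31.8 times in TPM in replicates 1, 2 and 3.

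All 8 genes linked to the control of Klf2 or its targets were detected, with a median of 12.3 TPM. Between libraries 5 of these 8 differed, against 44.9% of all genes tested. Klf3, a factor that competes for the same DNA motif, was highest at 31.7 ± 2.10 TPM. The kinase gene Mapk7 (28.2 ± 1.17 TPM) was next, followed by Mef2d (20.5 ± 1.56 TPM), which it activates, and by Map2k5 (13.7 ± 1.56 TPM), which acts on it. The forkhead gene Foxo1, needed for Klf2 expression in T cells, was at 10.8 ± 0.781 TPM, close to Klf2 itself. The ubiquitin ligase genes Wwp1 (3.29 ± 0.305 TPM) and Smurf1 (1.99 ± 0.596 TPM) and the forkhead gene Foxo3 (1.72 ± 0.293 TPM) were lowest.

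**Figure D3:**
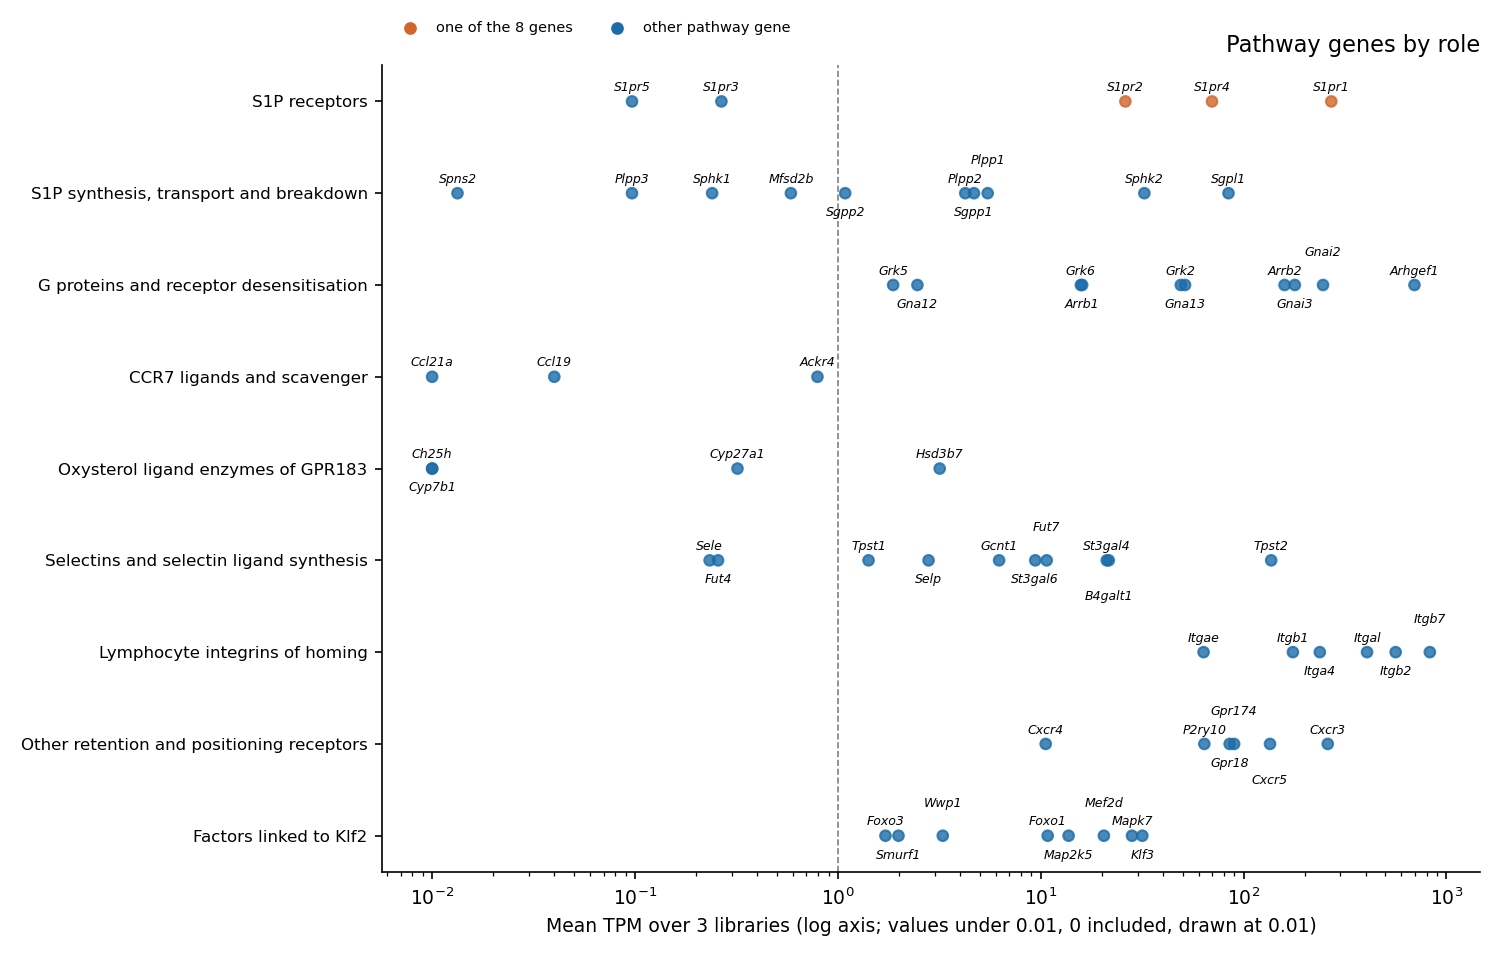
Mean TPM over the 3 libraries, on a log axis, for genes of the 9 pathway lists, with values under 0.01 drawn at 0.01 and a dashed line at 1 TPM. All 6 integrin genes lie right of the line. So does 1 of the 4 genes for enzymes that make or break down the oxysterol ligand, Hsd3b7. The 3 genes of the CCR7 ligands and their scavenger lie left of it.

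Over the 60 pathway genes outside the set, 45 were detected and 30 of 50 tested differed between libraries, with a median level of 10.8 TPM. The share of all tested genes that differed was 44.9%, and 66.6% where the mean count reached 1000. All 6 homing integrin genes were detected and all 6 differed; each had a mean count over 1000. Itgb7 (829 ± 87.9 TPM) was highest, followed by Itgb2 (562 ± 43.6 TPM) and its partner Itgal (406 ± 49.6 TPM), which form LFA-1. Itga4 (238 ± 26.1 TPM), Itgb1 (175 ± 34.9 TPM) and Itgae (63.5 ± 3.95 TPM) followed. Itgb1 was at 207.97, 138.53 and 178.66 TPM in replicates 1, 2 and 3, a coefficient of variation of 19.9%. Of the 8 genes, S1pr2 had 24.9% and the others 3.77 to 6.27%.

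Likeness over the libraries was described as the largest difference in log2(TPM + 0.1) in any of the 3 libraries, taken over protein-coding genes. For Ccr7 the closest genes were Nop53 (0.02) and Eif3h (0.02), for S1pr1 Fis1 (0.01) and Scp2 (0.04), and for Gpr183 Ctnnbl1 (0.01) and Phkg2 (0.01). For S1pr4 they were Casp1 and Map4, for Klf2 Dtd2 and Thap1, and for Cd69 Nsg2 and Cdkn2aipnl. With 3 libraries, many genes at a like level come close: between 16 and 73 genes lay within 0.1 of each of these 6. S1pr2 and Selplg each had 1 gene that near. That of S1pr2 was Cd160, with 26.48, 19.03 and 32.30 TPM, and that of Selplg was Ms4a6b, with 934.78, 942.08 and 1017.13 TPM. The second-closest genes were Smpd5 for S1pr2 and Cnbp for Selplg.

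The second gene table, counted on GENCODE M4, held fewer counts, 6288764, 6209287 and 5746072 in replicates 1, 2 and 3, and the share it kept was unequal among the 8 genes. It kept 12.4% of the estimated counts of Selplg, 19.6% of S1pr1, 20.2% of Cd69 and 24.4% of Ccr7. It kept more of the rest, with 35.5% of S1pr2, 35.8% of Klf2, 42.5% of Gpr183 and 52.0% of S1pr4. Over all genes the median share kept was 51.3% at 300 to 1000 estimated counts per kilobase, 40.5% at 1000 to 3000, 19.6% at 3000 to 10000 and 3.44% at 10000 or more. The most densely covered genes of the set were thus also those that lost most, and the cause was not tested. Coverage did not order the rest: Klf2, at 123 counts per kilobase, kept 35.8%, against a median of 51.9% at 100 to 300. S1pr2, at 322, and Cd69, at 1417, also kept less than the median at their coverage. Selplg, Ccr7, S1pr1, Gpr183 and S1pr4 kept as much or more.

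**Figure D4:**
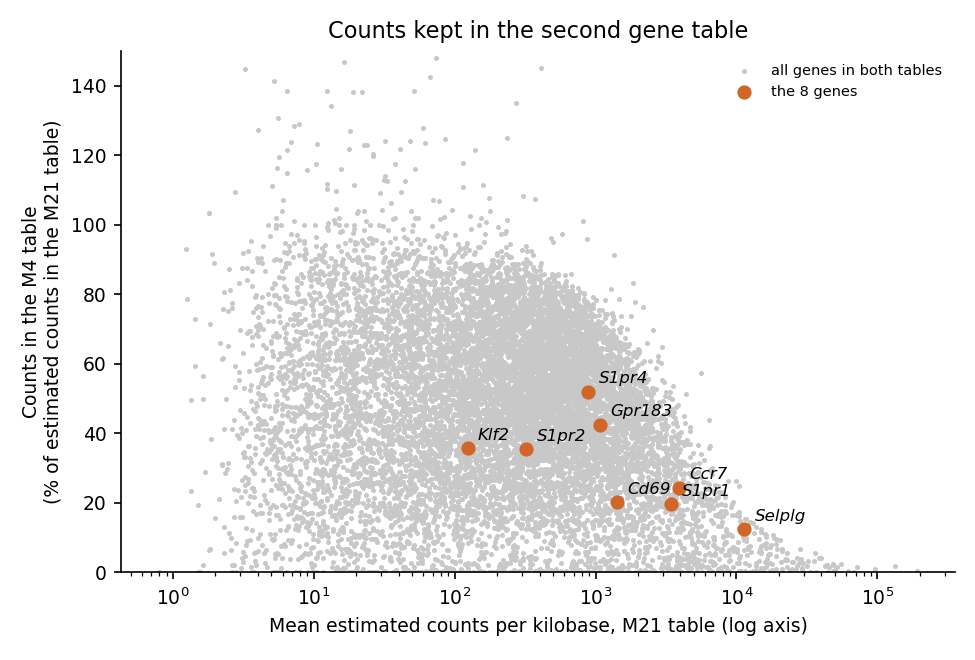
Grey dots are genes in both tables, each with its mean estimated counts per kilobase on a log axis and, on the vertical axis, its counts in the M4 table as a percentage of its estimated counts in the M21 table; 51 of 11838 genes lie above the plotted range. Selplg, at the right, kept 12.4%, and S1pr4, among the 8 genes the one that kept most, 52.0%.

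This compression changed the libraries' counts as well as the levels. In the second table Selplg had 2354, 2353 and 2360 counts in replicates 1, 2 and 3, and S1pr1 had 2051, 2051 and 2068, almost equal numbers from libraries of unequal totals. Selplg, S1pr1 and S1pr2 were called there, 3 of the 8, against 23.2% of all genes tested in that table. Per kilobase, the order began again with Selplg, Ccr7 and S1pr1 and ended with S1pr2 and Klf2. Cd69 and S1pr4 changed places there: S1pr4 followed S1pr1 at 460 counts per kilobase, then came Gpr183 at 455 and Cd69 at 286.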

How the data were processed

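Gene-level and transcript-level tables, which the authors deposited for each library, have RSEM's column names and rest on mm10 and GENCODE M21 per the file listings. Neither quantifier version nor strand setting is given in the sources used here. These deposited tables hold estimated counts (expected counts), TPM, FPKM, signal bounds of a TPM credibility interval (not used in results, since many deposited bounds exclude the deposited TPM) and each transcript's percent of its gene. A second deposited table holds raw counts of 22457 GENCODE M4 genes; the counting method is not given.

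Estimated counts were rounded. Rows naming no gene, 0.189 to 0.271% of counts, were left out. Genes whose counts summed to at least 30 were tested with Pearson's chi-square (2 degrees of freedom). CPM uses these gene totals. Scaling factors and a common coefficient of variation came from edgeR 4.0.16 and DESeq2 1.42.0 in R 4.3.3; the rest ran in Python 3.11.15 with scipy 1.17.1 and pandas 2.3.3. The floor of 3 counts covers counting error alone, since no molecular identifiers are recorded and reads may be copies. The test was run on simulated counts that held counting error alone. The libraries spread more than that, by a factor of 4.54 in the chi-square statistic, so the simulation cannot show how the test performs on them. Named were all 8 genes, all genes of lists of up to 8 and of longer lists the 4 highest and 2 lowest. The 2 genes most like each member were named too, and transcripts of 5% or more with the highest non-coding one. Other transcripts, Fut7, and B cell, CD8 T cell and endothelial genes, were named after their values were seen. A gene that the rule names is not reported here but stays in its list's counts. Members and lists were chosen with earlier results of these data known. Alternatives were other scalings, filters, statistics, pseudocounts, detection levels, count shares, the second table and leaving out each library.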

Additional observations from a re-analysis of the deposited data

How the results depend on the processing

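Of the 8 genes 7 were called as differing between libraries. With the quasi-Poisson test 2 were called, 3 in the second gene table, and leaving out 1 library gave between 3 and 7. Over all genes, 6575 were called; the quasi-Poisson test called 1332, 2520 were called in the second gene table, and leaving out 1 library between 3782 and 4700. Transcript shares moved when taken over estimated counts in place of TPM, as follows from the transcripts' lengths: S1pr2-201 was then at 92.6%, S1pr2-204 at 5.64%, Cd69-201 at 73.6%, Cd69-204 at 25.8%, Selplg-201 at 93.1%, Selplg-205 at 5.08% and Gpr183-201 at 99.9%. Of the results for single genes, 17 lost a call under an alternative. Mean levels and log2 ratios without 1 library are no check of stability. Leaving out 1 of 3 values always moves their mean by less than their SD. The highest library of Ccr7, Cd69 and Klf2 was another in the second gene table, where Cd69 and S1pr4 also changed places in the order. The number of the 8 genes highest in replicate 3 was 5 by CPM, 6 by TPM and 7 in the second table, and the S1pr2 difference kept its call on the counts of S1pr2-201 alone, both chosen after seeing the data. The common coefficient of variation between libraries, 11.48% in edgeR, covers technical spread only. No paired analysis was possible because there was 1 group. Depth limits Klf2, with 192 to 252 estimated counts, and the short transcripts S1pr2-204 and Selplg-206.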
